A study of Homo sapiens with 15 samples.

Results

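NRF2 redox and aldo-keto reductase genes were read in A549 cells, a human lung carcinoma line that carries a mutated KEAP1, on 15 Affymetrix HG-U133 Plus 2.0 arrays. The set is a list of 34 genes, taken by current or former symbol. Of these, 32 were measured by at least 1 probe set that names a single gene, out of 19775 genes measured that way, and each gene was read from its probe set of highest mean across the 15 arrays. NR0B1 and AKR1B1 were not analysed here. Cells attached for 24 h and were then held in geldanamycin or in the vehicle alone, and the final DMSO concentration was 0.4%. The 5 groups of 3 arrays each were 40 nM geldanamycin for 24 h, vehicle for 24 h, vehicle for 48 h, 10 nM for 48 h and 40 nM for 48 h. Per the labels, 40 nM was the IC50 and 10 nM the IC20 found for these cells. Geldanamycin is a benzoquinone ansamycin that occupies the ATP pocket of the chaperone HSP90.

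NRF2, encoded by NFE2L2, is a transcription factor that pairs with small MAF proteins and binds antioxidant response elements in the DNA. KEAP1 holds NRF2 and presents it to a CUL3 ubiquitin ligase, so that NRF2 is degraded until electrophiles or oxidants modify KEAP1. In A549 cells the mutated KEAP1 restrains NRF2 poorly, and target genes for glutathione, thioredoxin, NADPH, heme breakdown and carbonyl reduction are known for high baseline expression there. Transcript level does not report NRF2 protein, which was not measured.

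RefSeq promoter windows of GRCh38.p14, from 250 bases before to 50 bases after each gene's start, were matched for 27 of the 32 measured genes. The core of the antioxidant response element was searched on both strands as TGACNNNGC. It lay in the windows of 7 of the 27 genes (25.9%) and of 3702 of 27305 promoters in all (13.6%). The 7 genes were GCLM, GPX2, TXNRD1, PGD, ME1, FECH and PIR. In ME1 and PIR, 1 match overlapped the AP-1 motif, searched as TGAGTCA or TGACTCA. The windows of GCLM, GPX2 and TXNRD1 are shown because they stand for the glutathione and thioredoxin groups and their transcripts are described array by array. They read 5′ to 3′ along the gene's strand, and the capitals mark each match to the core, which appears as its reverse complement where it lies on the opposite strand.
GCLM promoter: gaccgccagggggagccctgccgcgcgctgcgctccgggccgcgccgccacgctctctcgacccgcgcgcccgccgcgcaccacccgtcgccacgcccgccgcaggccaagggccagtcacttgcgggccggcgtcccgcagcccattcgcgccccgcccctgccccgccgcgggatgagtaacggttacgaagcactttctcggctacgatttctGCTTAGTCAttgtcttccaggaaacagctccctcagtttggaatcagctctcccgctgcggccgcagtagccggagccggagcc
GPX2 promoter: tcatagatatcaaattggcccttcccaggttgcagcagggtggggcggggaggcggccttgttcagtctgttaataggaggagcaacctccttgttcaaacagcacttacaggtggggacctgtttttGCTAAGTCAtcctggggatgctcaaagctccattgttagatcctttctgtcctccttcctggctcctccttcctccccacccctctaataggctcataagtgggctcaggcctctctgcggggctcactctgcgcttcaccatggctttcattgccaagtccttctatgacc
TXNRD1 promoter: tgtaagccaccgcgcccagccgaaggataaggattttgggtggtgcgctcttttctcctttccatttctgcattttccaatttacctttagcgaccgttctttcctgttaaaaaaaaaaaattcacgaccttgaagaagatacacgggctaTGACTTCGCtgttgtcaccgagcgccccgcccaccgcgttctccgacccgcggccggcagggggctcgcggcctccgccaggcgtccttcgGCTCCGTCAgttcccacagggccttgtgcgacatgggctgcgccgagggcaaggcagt
The GCLM window is chr1:93909381-93909680 on the minus strand, with its match 34 bases before the start. The GPX2 window is chr14:64942696-64942995 on the minus strand, with its match 122 bases before the start. The TXNRD1 window is chr12:104215529-104215828 on the plus strand, with matches 99 and 8 bases before the start. A match describes these letters only, and binding by NRF2 was not measured.

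All values are log2 RMA values as deposited, so a difference of 1 is a doubling of the signal. The mean over all probe sets lay between 5.13 and 5.14 on the arrays at 24 h and between 5.516 and 5.523 on those at 48 h, so tests were made within a time only. Each difference is given with its standard error (±) from limma, fitted to all 15 arrays, and a gene rose or fell where the two-sided p adjusted by Benjamini-Hochberg over 19775 genes was below 0.05. Arrays have no read depth, and the 3 arrays per group limit the precision: the median standard error over all genes was 0.0966 between groups. No label states that the replicates are separate cultures, and the p-values then reflect array-to-array spread that could be technical. By probe set brightness, the epithelial keratins KRT8, KRT18 and KRT7 lay at or above the 99.2 percentile of genes and 5 of 6 lung epithelial markers lay above the median, but EPCAM lay at the 37.5 percentile. Of the alveolar type 2 markers, 2 of 6 measured lay above the median, and LAMP3 lay at the 10.3 percentile. None of 3 leukocyte or 4 endothelial markers lay above the median, and 1 of 5 fibroblast markers did. In bulk RNA, fewer cells of a type and less RNA per cell cannot be told apart.

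Control probe sets set the 10 nM arrays apart. The poly-A spikes, transcripts added to RNA before labelling, averaged 3.37 ± 0.04 at 10 nM and 5.93 ± 0.06 in vehicle for 48 h (SD, n = 3 each, 24 probe sets). The 3' minus 5' difference of ACTB, a sign of RNA or labelling quality, was 2.68 ± 0.03 at 10 nM and 0.35 ± 0.06 in vehicle (SD, n = 3 each), while that of GAPDH was 0.129 ± 0.004 and 0.147 ± 0.026. The 40 nM arrays at 48 h had 5.81 ± 0.08 for the spikes and 0.44 ± 0.03 for ACTB (SD, n = 3). Of the other cell types, fibroblasts had the widest range of marker level at 48 h: the mean of the 5 markers was 5.71 in vehicle, 4.84 at 10 nM and 5.59 at 40 nM for 48 h. The part of these differences in any result at 10 nM was not tested. At 24 h the lung epithelial markers averaged 9.85 at 40 nM and 9.14 in vehicle, and at 48 h 10.04 in vehicle, 10.1 at 10 nM and 10.56 at 40 nM. The part of these differences in the results at 24 h and at 48 h was not tested.

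At 24 h, 40 nM geldanamycin raised most of the set. Of 32 genes, 25 were higher than in vehicle and none was lower, while 14.8% of all genes were higher and 16.7% were lower. The 7 others were KEAP1, MAFG, MGST1, TXN, SRXN1, TALDO1 and CES1. The median difference was 0.59 over the set and -0.01 over all genes, and 28 of the 32 showed no overlap between groups, as did 37.6% of all genes. Leaving out any 1 array of either group kept all 25 calls. The largest rises were in GPX2, HMOX1, PIR, AKR1C2 and OSGIN1, from 3.48 down to 1.03. All 4 aldo-keto reductases and all 4 heme genes rose, as did 5 of 6 glutathione genes.

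At 48 h the picture differed between the 10 nM and the 40 nM arrays. The 10 nM arrays also stood apart in their control probe sets, and the part of this in the 10 nM counts was not tested. At 40 nM, 14 of 32 genes were higher and 1 was lower than in vehicle, against 10.5% and 10.7% of all genes, with a median of 0.15 over the set and -0.02 over all genes. There was no overlap between groups for 26 genes and for 38.8% of all genes. At 10 nM, 7 were higher and 9 were lower, against 14.4% and 11.9% of all genes, with medians of -0.03 and 0.00. There was no overlap between groups for 22 genes and for 40.2% of all genes. Between the doses, 20 genes were higher at 40 nM than at 10 nM and none was lower, against 11.9% and 14.5% of all genes, with medians of 0.17 and -0.01, and 27 did not overlap, as did 39.9% of all genes. These 3 comparisons share arrays and are not independent of each other.

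Leaving out any 1 array of the compared groups lowered the counts of higher genes at 48 h. They became 9 to 12 at 40 nM, 4 to 5 at 10 nM and 13 to 16 between the doses. Each such fit also has fewer arrays and less precision, and the part of this in the lost calls was not tested. The 14 higher at 40 nM became 9 without vehicle replicate 1, 40 nM replicate 1 or 40 nM replicate 2. The 1 lower became 0 without any 1 array other than vehicle replicate 2. The 7 higher at 10 nM became 4 without vehicle replicate 1 or 3, or 10 nM replicate 1 or 2. The 20 higher at 40 nM than at 10 nM became 13 without 40 nM replicate 2. Calls were lost without some array where the difference was 0.27 or less in size. They were those of ABHD4, AKR1C1, AKR1C3, PGD, SLC48A1 and TXNRD1 at 40 nM, with limma adjusted p up to 0.148. At 10 nM they were those of AKR1B10, GSR, HMOX1, PRDX1, SLC48A1 and TKT, up to 0.132, and between the doses those of AKR1C1, FECH, NFE2L2, PIR, TALDO1, TXNRD1 and UGDH, up to 0.16.

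**Figure D1:**
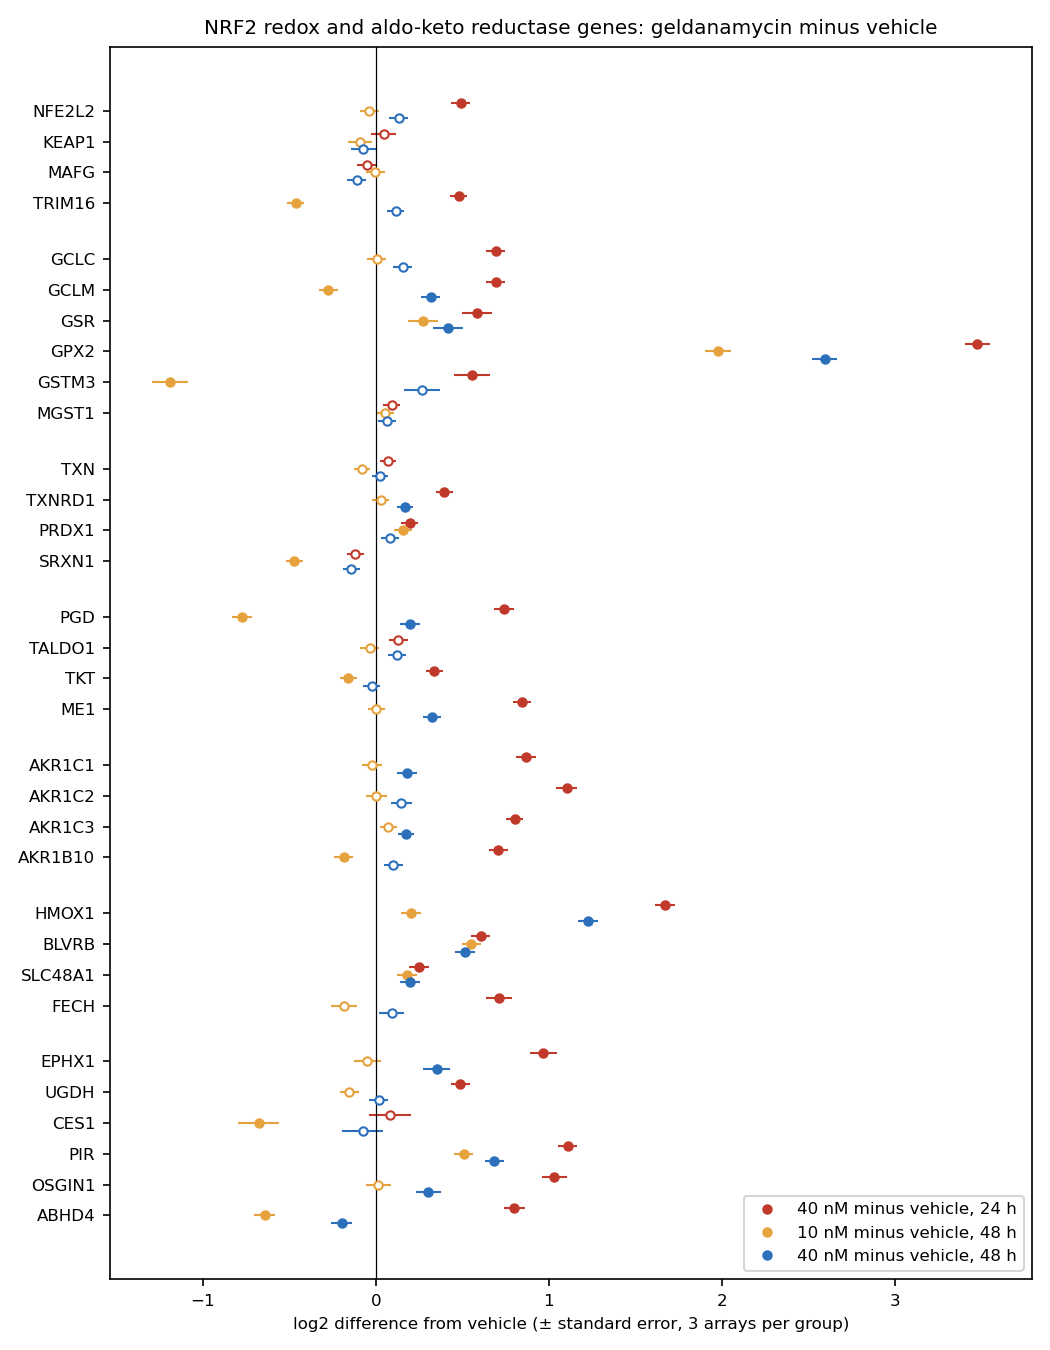
Log2 difference from vehicle (x axis, ± standard error, 3 arrays per group) of the 32 measured genes, ordered by role, for 40 nM at 24 h, 10 nM at 48 h and 40 nM at 48 h. Filled points passed an adjusted p of 0.05 and open points did not. The 24 h points lie mostly right of 0, with GPX2 at 3.48, and the 10 nM points lie on both sides, from GSTM3 at -1.19 to GPX2 at 1.98.

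Of the 4 regulators measured, NFE2L2 and TRIM16 rose at 24 h and none rose at 40 nM for 48 h. NFE2L2 had 10.35, 10.22 and 10.25 on the 40 nM arrays at 24 h, against 9.86, 9.75 and 9.73 on the vehicle arrays. Every treated array lay above every vehicle array, and the difference was 0.49 ± 0.06 (limma adjusted p = 8.39e-06). At 48 h NFE2L2 had 10.34, 10.31 and 10.33 in vehicle, 10.34, 10.26 and 10.27 at 10 nM, and 10.45, 10.50 and 10.44 at 40 nM. The 10 nM and vehicle arrays overlapped, with a difference of -0.04 ± 0.06. The 40 nM arrays lay above the others, yet against vehicle the difference of 0.13 ± 0.06 did not pass the test (limma adjusted p = 0.118). Against 10 nM it did, at 0.17 ± 0.06, but not without any 1 array other than 10 nM replicate 1 (limma adjusted p up to 0.116). Dimmer NFE2L2 probe sets, with means of 5.75 and 3.69, had 0.59 and 0.15 at 24 h, but -0.03 and -0.06 between the doses. With the probe sets averaged, the difference between the doses was 0.03 (limma adjusted p = 0.86).

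KEAP1 had 8.94, 8.92 and 9.01 on the 40 nM arrays at 24 h, against 9.03, 8.93 and 8.78 in vehicle, and the groups overlapped. At 48 h it had 9.34, 9.25 and 9.27 in vehicle, 9.26, 9.25 and 9.08 at 10 nM, and 9.16, 9.25 and 9.23 at 40 nM. No comparison of KEAP1 passed the test: the differences were 0.05 ± 0.07 at 24 h, -0.09 ± 0.07 at 10 nM, -0.07 ± 0.07 at 40 nM for 48 h and 0.02 ± 0.07 between the doses. MAFG, a small MAF partner of NRF2, did not pass either, with -0.05 at 24 h, 0.00 at 10 nM, -0.11 at 40 nM for 48 h and -0.11 between the doses. TRIM16, a tripartite motif protein, rose by 0.48 ± 0.05 at 24 h and fell by 0.46 ± 0.05 at 10 nM. At 40 nM for 48 h its difference of 0.11 ± 0.05 did not pass the test, and it was higher by 0.58 than at 10 nM.

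Among the glutathione genes, GPX2 moved furthest. GPX2, a selenium-dependent glutathione peroxidase known from epithelia, had 9.88, 9.70 and 9.77 at 40 nM for 24 h, against 6.35, 6.41 and 6.16 in vehicle. This is a difference of 3.48 ± 0.07, or 11.2-fold (limma adjusted p = 1.34e-12). At 48 h GPX2 had 9.24, 9.07 and 9.09 in vehicle, 11.10, 11.14 and 11.11 at 10 nM, and 11.71, 11.72 and 11.77 at 40 nM. The 3 groups at 48 h did not overlap and stood in the order of dose. GPX2 rose by 1.98 ± 0.07 (3.94-fold) at 10 nM and by 2.60 ± 0.07 (6.05-fold) at 40 nM, and it was higher by 0.62 ± 0.07 at 40 nM than at 10 nM (limma adjusted p = 2.33e-05). A dimmer GPX2 probe set, with a mean of 4.18, had 0.47 at 24 h, 0.79 at 10 nM and 1.26 at 40 nM for 48 h, the same direction each time and a smaller size.

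GCLC and GCLM, the catalytic and modifier subunits of glutamate-cysteine ligase, catalyse the first step of glutathione synthesis. GCLM had 11.82, 11.85 and 11.87 at 40 nM for 24 h, against 11.20, 11.22 and 11.05 in vehicle. The groups did not overlap, and the difference was 0.69 ± 0.05, or 1.62-fold (limma adjusted p = 2.5e-07). At 48 h GCLM had 11.65, 11.65 and 11.64 in vehicle, 11.41, 11.35 and 11.36 at 10 nM, and 11.95, 12.00 and 11.94 at 40 nM. The 10 nM arrays were the lowest and the 40 nM arrays the highest: GCLM fell by 0.27 ± 0.05 at 10 nM (limma adjusted p = 0.00159) and rose by 0.32 ± 0.05 at 40 nM (limma adjusted p = 0.000728). The difference between the doses was 0.59 ± 0.05. The other 2 GCLM probe sets had -0.26 and -0.07 at 10 nM, and 0.55 and 0.33 at 40 nM. GCLC rose by 0.69 ± 0.05 at 24 h, and its differences of 0.01 at 10 nM, 0.16 at 40 nM for 48 h and 0.15 between the doses did not pass the test.

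GSR, which reduces glutathione disulfide with NADPH, rose by 0.58 ± 0.09 at 24 h, 0.27 ± 0.09 at 10 nM and 0.42 ± 0.09 at 40 nM for 48 h, with 0.15 ± 0.09 between the doses, which did not pass. Its other probe set had -0.48 at 10 nM, the opposite direction, and 0.20 at 40 nM. The conjugating enzyme GSTM3 rose by 0.56 ± 0.10 at 24 h and fell by 1.19 ± 0.10 at 10 nM (limma adjusted p = 1.03e-06). At 40 nM for 48 h GSTM3 had a difference of 0.27 ± 0.10 (limma adjusted p = 0.0908), and it was higher by 1.46 ± 0.10 than at 10 nM. Its dimmer probe set, with a mean of 4.77, had 0.14 at 10 nM and -0.05 between the doses. The membrane-bound transferase MGST1 did not pass in any comparison, with differences of 0.09 at 24 h, 0.05 at 10 nM, 0.06 at 40 nM for 48 h and 0.01 between the doses.

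**Figure D2:**
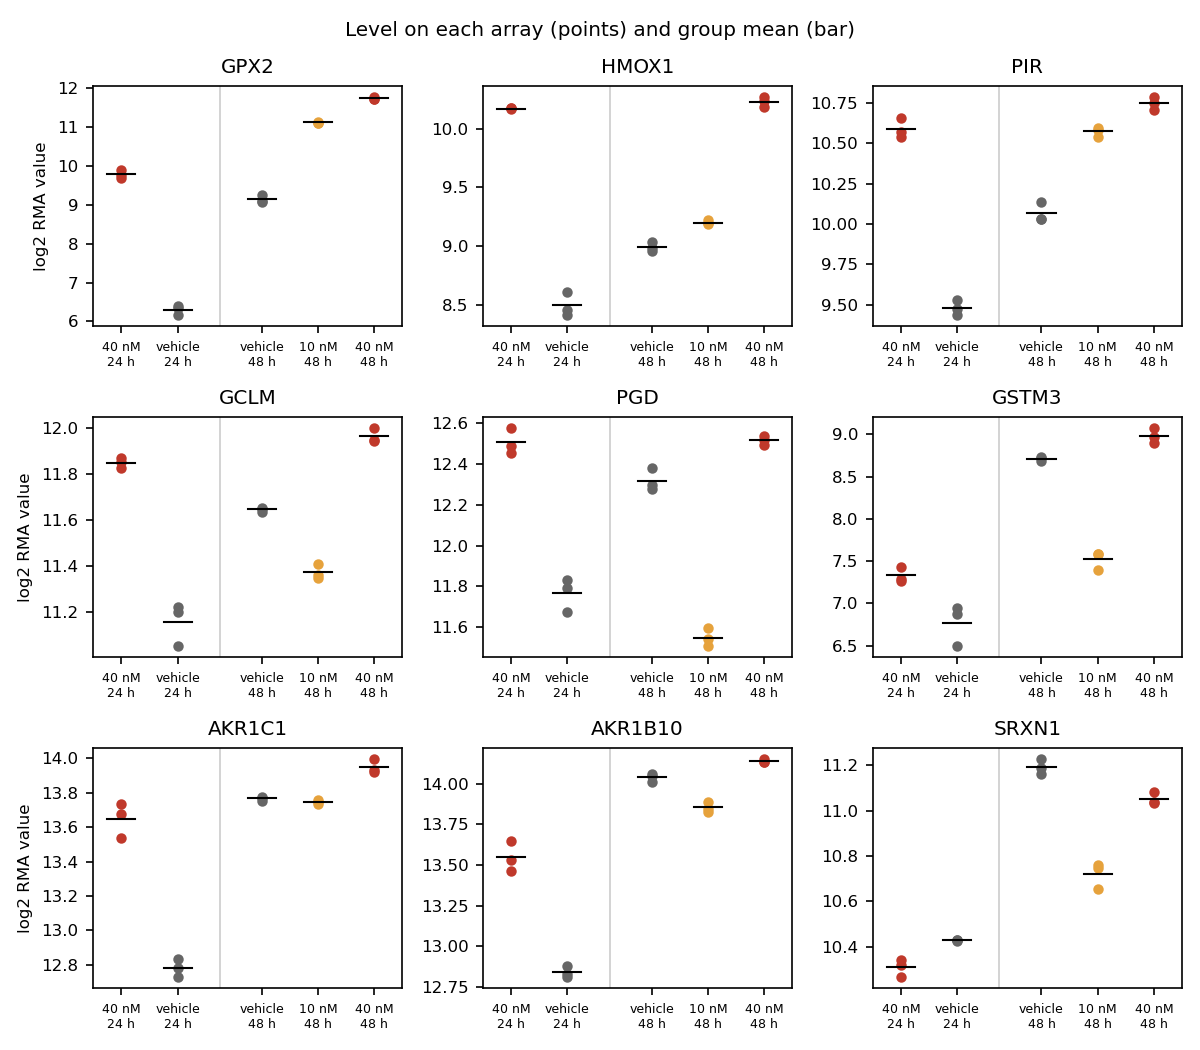
Log2 RMA value on each array (points) and group mean (bars) for 9 genes: 40 nM and vehicle at 24 h left of the grey line, and vehicle, 10 nM and 40 nM at 48 h right of it. Each panel has its own y axis, which does not start at 0. GPX2, PIR and HMOX1 stand in the order of dose at 48 h, while GCLM, PGD and GSTM3 are lowest at 10 nM among the 48 h groups.

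In the thioredoxin group, 2 of 4 genes rose at 24 h. TXNRD1, the reductase that recharges thioredoxin with NADPH, had 13.08, 13.12 and 13.05 at 40 nM, against 12.69, 12.66 and 12.71 in vehicle. The treated arrays lay above the vehicle arrays by 0.40 ± 0.05 (limma adjusted p = 1.59e-05). At 48 h TXNRD1 had 12.93, 12.95 and 12.93 in vehicle, 12.94, 12.93 and 13.02 at 10 nM, and 13.13, 13.09 and 13.10 at 40 nM. Only the 40 nM arrays stood above the vehicle arrays without overlap, by 0.17 ± 0.05 (limma adjusted p = 0.0211). The call was lost without any 1 array other than 40 nM replicate 3 (limma adjusted p up to 0.074). At 10 nM the difference of 0.03 ± 0.05 did not pass, and between the doses it was 0.14 ± 0.05.

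SRXN1, sulfiredoxin, which repairs overoxidized peroxiredoxins, was not among the genes that rose. It had 10.32, 10.27 and 10.34 at 40 nM for 24 h, against 10.43, 10.43 and 10.43 in vehicle. The treated arrays were the lower ones, by -0.12 ± 0.05, which did not pass the test (limma adjusted p = 0.094). At 48 h SRXN1 had 11.19, 11.16 and 11.23 in vehicle, 10.75, 10.76 and 10.66 at 10 nM, and 11.04, 11.03 and 11.08 at 40 nM. Both treated groups lay below vehicle without overlap: SRXN1 fell by 0.47 ± 0.05 at 10 nM (limma adjusted p = 7.35e-06), and its difference of -0.14 ± 0.05 at 40 nM did not pass (limma adjusted p = 0.0612). It was higher by 0.33 at 40 nM than at 10 nM. PRDX1, a peroxiredoxin that removes hydrogen peroxide, rose by 0.20 ± 0.05 at 24 h and 0.16 ± 0.05 at 10 nM, and its differences of 0.08 at 40 nM for 48 h and -0.08 between the doses did not pass. TXN, thioredoxin itself, did not pass in any comparison, with 0.07 at 24 h, -0.08 at 10 nM, 0.02 at 40 nM for 48 h and 0.10 between the doses.

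The NADPH genes rose at 24 h except TALDO1. PGD, which makes NADPH in the oxidative pentose phosphate pathway, rose by 0.74 ± 0.06, and ME1, the cytosolic NADP-dependent malic enzyme, rose by 0.84 ± 0.05. PGD had 12.28, 12.30 and 12.38 in vehicle, 11.59, 11.54 and 11.51 at 10 nM, and 12.49, 12.54 and 12.52 at 40 nM for 48 h. The 10 nM arrays were far below the others, and PGD fell by 0.77 ± 0.06 at 10 nM (limma adjusted p = 2.76e-07). It rose by 0.20 ± 0.06 at 40 nM (limma adjusted p = 0.0275) and differed by 0.97 ± 0.06 between the doses. The 40 nM call was lost without any 1 array other than vehicle replicate 3 (limma adjusted p up to 0.104). The 2 dimmer PGD probe sets had 0.00 and -0.08 at 10 nM, and -0.01 and -0.25 at 40 nM for 48 h. ME1 had a difference of 0.00 ± 0.05 at 10 nM and rose by 0.33 ± 0.05 at 40 nM for 48 h, with 0.32 between the doses. Another bright ME1 probe set, with a mean of 10.16, had 0.31 at 10 nM and 0.57 at 40 nM for 48 h. Read from that set, without _x_at and _s_at probe sets, ME1 passed at 10 nM (limma adjusted p = 0.004). The dimmest ME1 set, with a mean of 4.17, had -0.21 at 24 h, -0.03 at 10 nM and 0.00 at 40 nM for 48 h.

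TKT and TALDO1 are the transketolase and transaldolase of the nonoxidative branch. TKT rose by 0.34 ± 0.05 at 24 h and fell by 0.16 ± 0.05 at 10 nM, while its differences of -0.02 at 40 nM for 48 h and 0.13 between the doses did not pass. Another bright TKT probe set, with a mean of 12.35, had 0.47 at 24 h, -0.37 at 10 nM and 0.02 at 40 nM for 48 h. The third TKT probe set, the dimmest, had -0.02 at 24 h, 0.32 at 10 nM and -0.47 at 40 nM for 48 h. At 24 h and at 10 nM its direction was opposite to that of the set used. TALDO1 had 0.13 at 24 h, -0.04 at 10 nM and 0.12 at 40 nM for 48 h, none of which passed, and it was higher by 0.16 ± 0.05 at 40 nM than at 10 nM.

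The aldo-keto reductases reduce aldehydes and ketones with NADPH. AKR1C1, AKR1C2 and AKR1C3 also act on steroids and prostaglandins, and AKR1B10 reduces retinal and lipid aldehydes. All 4 measured members rose at 24 h. AKR1C1 had 13.67, 13.73 and 13.54 at 40 nM, against 12.73, 12.83 and 12.78 in vehicle, a difference of 0.87 ± 0.06 (limma adjusted p = 5.27e-08). AKR1C2 had 13.78, 13.90 and 13.65 at 40 nM, against 12.69, 12.73 and 12.61 in vehicle, a difference of 1.10 ± 0.06 (limma adjusted p = 9.3e-09). The groups of these 2 genes did not overlap. AKR1C3 had 13.63, 13.60 and 13.60 at 40 nM, against 12.85, 12.83 and 12.74 in vehicle, a difference of 0.80 ± 0.05 (limma adjusted p = 2e-08). AKR1B10 had 13.65, 13.46 and 13.53 at 40 nM, against 12.83, 12.88 and 12.81 in vehicle, a difference of 0.71 ± 0.05 (limma adjusted p = 2.09e-07). AKR1C3 and AKR1B10 likewise showed no overlap.

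At 48 h the differences of the aldo-keto reductases from vehicle were 0.19 or less in size. AKR1C1 had 13.75, 13.77 and 13.78 in vehicle, 13.74, 13.76 and 13.75 at 10 nM, and 13.93, 13.997 and 13.92 at 40 nM. AKR1C2 had 13.73, 13.74 and 13.73 in vehicle, 13.75, 13.71 and 13.75 at 10 nM, and 13.89, 13.87 and 13.89 at 40 nM. For both genes the 10 nM and vehicle arrays overlapped, with -0.02 for AKR1C1 and 0.00 for AKR1C2, and the 40 nM arrays lay above them, by 0.18 ± 0.06 for AKR1C1 (limma adjusted p = 0.0381) and by 0.15 ± 0.06 for AKR1C2, which did not pass (limma adjusted p = 0.114). AKR1C3 had 13.63, 13.61 and 13.64 in vehicle, 13.69, 13.70 and 13.71 at 10 nM, and 13.80, 13.83 and 13.78 at 40 nM. Its difference of 0.07 at 10 nM did not pass, and it rose by 0.17 ± 0.05 at 40 nM (limma adjusted p = 0.0185). AKR1B10 had 14.05, 14.06 and 14.01 in vehicle, 13.85, 13.89 and 13.83 at 10 nM, and 14.14, 14.14 and 14.15 at 40 nM. It fell by 0.19 ± 0.05 at 10 nM (limma adjusted p = 0.0211), and its difference of 0.10 ± 0.05 at 40 nM did not pass (limma adjusted p = 0.246). Between the doses, on the probe sets used, AKR1C1 was higher at 40 nM by 0.20 and AKR1B10 by 0.29. The differences of 0.14 for AKR1C2 and 0.10 for AKR1C3 did not pass on those sets. The 40 nM call of AKR1C1 at 48 h was lost whichever 1 array of either group was left out (limma adjusted p from 0.0635 to 0.14). That of AKR1C3 was lost without vehicle replicate 1 or 2, or 40 nM replicate 1 or 2 (limma adjusted p from 0.0511 to 0.0757).

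The aldo-keto reductase probe sets used lay near the top of the scale, where the highest value of any probe set on any array was 14.43. Dimmer probe sets gave other sizes. For AKR1C1, a probe set with a mean of 8.10 had 2.21 at 24 h, -0.42 at 10 nM and 0.51 at 40 nM for 48 h. For AKR1C2, a probe set with a mean of 5.74 had 1.01 at 24 h, -0.73 at 10 nM and 1.35 at 40 nM for 48 h. At 48 h it thus showed differences that the bright set did not. Between the doses these AKR1C1 and AKR1C2 sets had 0.93 and 2.08, while another bright AKR1C2 set had 0.15. Without _x_at and _s_at probe sets, AKR1C2 passed between the doses (limma adjusted p = 9.85e-09). With its probe sets averaged, it had 0.79 and passed (limma adjusted p = 8.17e-08). AKR1C1 and AKR1C2 are near-identical copies whose probe sets may share signal, and the values of each are uncertain for that reason. AKR1C3 and AKR1B10 had 1 probe set each. Over the whole list, 18 genes had several probe sets, and these all had the same sign for 13 of the 18 at 24 h, 7 at 10 nM and 12 at 40 nM for 48 h.

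**Figure D3:**
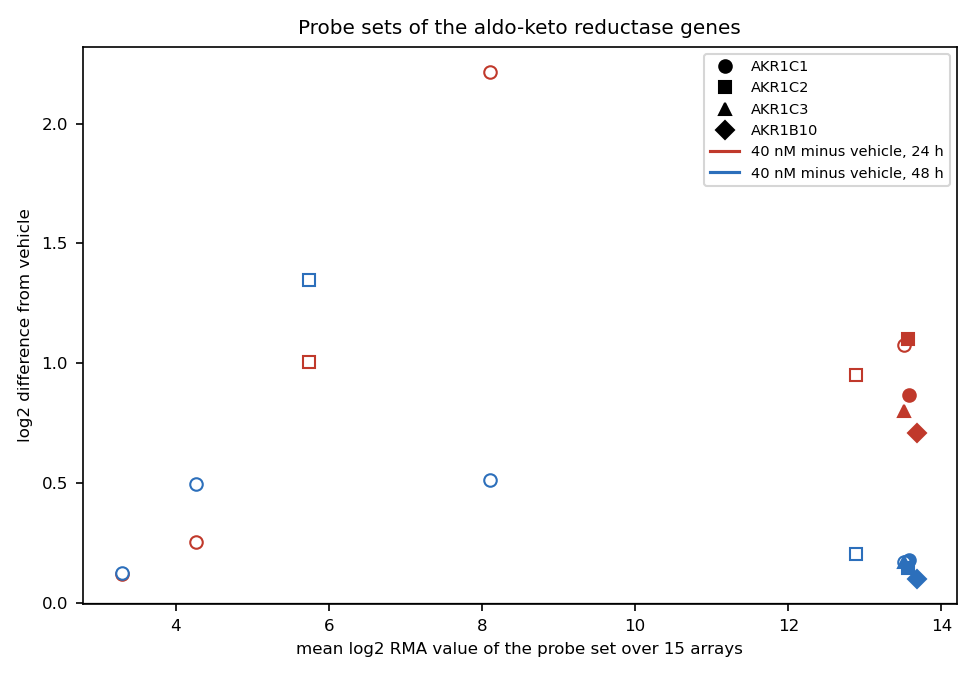
Log2 difference from vehicle (y axis) against the mean log2 RMA value over 15 arrays (x axis) for each probe set of AKR1C1, AKR1C2, AKR1C3 and AKR1B10, at 40 nM for 24 h and for 48 h. Filled symbols are the probe sets used. At 48 h the sets above 12 lie between 0.10 and 0.21, while the AKR1C2 set at 5.74 lies at 1.35.

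The heme genes all rose at 24 h, and 3 of 4 rose at each dose at 48 h. Of all genes, 14.8% were higher at 24 h, 14.4% at 10 nM and 10.5% at 40 nM for 48 h. HMOX1, heme oxygenase 1, which opens the heme ring, had 10.16, 10.17 and 10.17 at 40 nM for 24 h, against 8.62, 8.46 and 8.41 in vehicle. The difference was 1.67 ± 0.06, or 3.18-fold (limma adjusted p = 1.37e-10). At 48 h HMOX1 had 8.99, 8.96 and 9.04 in vehicle, 9.19, 9.22 and 9.20 at 10 nM, and 10.18, 10.23 and 10.27 at 40 nM. The 10 nM arrays were slightly above vehicle and the 40 nM arrays far above both. HMOX1 rose by 0.20 ± 0.06 at 10 nM (limma adjusted p = 0.016). That call was lost without vehicle replicate 2 (limma adjusted p = 0.0647) or 10 nM replicate 2 (limma adjusted p = 0.0566). HMOX1 rose by 1.23 ± 0.06, or 2.34-fold, at 40 nM (limma adjusted p = 4.64e-09), and differed by 1.02 ± 0.06 between the doses.

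BLVRB, a biliverdin and flavin reductase, had 11.54, 11.58 and 11.57 in vehicle, 12.13, 12.07 and 12.16 at 10 nM, and 12.06, 12.05 and 12.13 at 40 nM for 48 h. The treated groups overlapped each other and lay above vehicle: BLVRB rose by 0.55 ± 0.06 at 10 nM and 0.52 ± 0.06 at 40 nM, and the doses differed by -0.04 ± 0.06. At 24 h it rose by 0.61 ± 0.06. The heme transporter SLC48A1 rose by 0.25 ± 0.06 at 24 h, 0.18 ± 0.06 at 10 nM and 0.20 ± 0.06 at 40 nM for 48 h, with 0.02 between the doses. Both of its 48 h calls were lost without some array, at 10 nM with limma adjusted p up to 0.132 and at 40 nM up to 0.0837. Its other probe sets had 0.25 and 0.35 at 10 nM, and 0.29 and 0.42 at 40 nM for 48 h. FECH, which inserts iron into protoporphyrin, rose by 0.71 ± 0.07 at 24 h. Its differences of -0.18 at 10 nM and 0.09 at 40 nM for 48 h did not pass, and it was higher by 0.27 at 40 nM than at 10 nM. The dimmer FECH probe sets, with means of 8.50 and 5.70, had 0.21 and 0.07 at 10 nM, the opposite direction. At 40 nM for 48 h they had 0.32 and 0.52. With all FECH probe sets averaged, the difference at 40 nM for 48 h was 0.31 and passed (limma adjusted p = 0.00252).

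Among the detoxification and other target genes, PIR rose against vehicle at each dose and time. PIR, pirin, an iron-binding nuclear protein, had 10.54, 10.66 and 10.57 at 40 nM for 24 h, against 9.53, 9.47 and 9.43 in vehicle, a difference of 1.11 ± 0.06 (limma adjusted p = 3.72e-09). At 48 h PIR had 10.14, 10.03 and 10.03 in vehicle, 10.58, 10.60 and 10.54 at 10 nM, and 10.71, 10.79 and 10.75 at 40 nM. The 3 groups stood in the order of dose without overlap, with rises of 0.51 ± 0.06 at 10 nM and 0.68 ± 0.06 at 40 nM and a difference of 0.18 ± 0.06 between the doses.

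OSGIN1, an oxidative stress-induced growth inhibitor, had 7.13, 7.12 and 7.15 at 40 nM for 24 h, against 6.10, 6.07 and 6.13 in vehicle, a difference of 1.03 ± 0.07 (limma adjusted p = 6.93e-08). At 48 h OSGIN1 had 7.38, 7.16 and 7.22 in vehicle, 7.25, 7.34 and 7.22 at 10 nM, and 7.46, 7.69 and 7.53 at 40 nM. The 10 nM arrays lay among the vehicle arrays, with a difference of 0.01 ± 0.07, and the 40 nM arrays lay above both by 0.30 ± 0.07 against vehicle and 0.29 against 10 nM. EPHX1, microsomal epoxide hydrolase, rose by 0.97 ± 0.08 at 24 h and 0.35 ± 0.08 at 40 nM for 48 h, had -0.05 at 10 nM, and was higher by 0.40 at 40 nM than at 10 nM. UGDH, which makes the UDP-glucuronate used in conjugation, rose by 0.49 ± 0.06 at 24 h. At 48 h UGDH had -0.15 at 10 nM and 0.02 at 40 nM, neither of which passed, and was higher by 0.17 at 40 nM than at 10 nM.

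ABHD4, a lipase of N-acyl phospholipids, was the only gene of the set that rose at 24 h and fell at 40 nM for 48 h. It had 8.60, 8.58 and 8.66 at 40 nM for 24 h, against 7.73, 7.90 and 7.81 in vehicle, a rise of 0.80 ± 0.06. At 48 h it had 8.80, 8.75 and 8.88 in vehicle, 8.21, 8.07 and 8.22 at 10 nM, and 8.61, 8.61 and 8.63 at 40 nM. Both treated groups lay below vehicle, with falls of 0.64 ± 0.06 at 10 nM and 0.20 ± 0.06 at 40 nM (limma adjusted p = 0.0345), and the doses differed by 0.45. The call at 40 nM was lost without any 1 array other than vehicle replicate 2 (limma adjusted p up to 0.148). Its dimmer probe set had 0.63 at 24 h, -0.20 at 10 nM and 0.16 at 40 nM for 48 h. CES1, a carboxylesterase, had 0.08 at 24 h and -0.08 at 40 nM for 48 h, neither of which passed, fell by 0.68 ± 0.12 at 10 nM and was higher by 0.60 at 40 nM than at 10 nM.

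The effect of 40 nM was smaller at 48 h than at 24 h for 20 of the 32 genes and larger for none. Over all genes, the effect at 48 h minus that at 24 h was lower for 8.11% and higher for 9.18%, and the median was -0.37 over the set and 0.00 over all genes. A step added equally to all arrays of a time drops out of this difference of effects, but a change of scale between the times does not. The aldo-keto reductase means in vehicle lay from 12.67 to 12.84 at 24 h and from 13.63 to 14.04 at 48 h. The highest value of any probe set was 14.43. The part of such a change of scale in the smaller effects at 48 h was not tested. All 4 aldo-keto reductases were among the 20, from -0.61 ± 0.08 for AKR1B10 to -0.95 ± 0.09 for AKR1C2, although the dimmer AKR1C2 probe set gave 0.34. ABHD4 had the lowest value, -0.997 ± 0.087, followed by AKR1C2 and by GPX2 at -0.88 ± 0.10, although the dimmer GPX2 probe set gave 0.79. With the probe sets of each gene averaged, GPX2 had -0.05 (limma adjusted p = 0.893) and PGD -0.23 (limma adjusted p = 0.162), and neither passed. The 12 genes that did not pass were KEAP1 (-0.12), MAFG (-0.06), GSR (-0.17), GSTM3 (-0.29), MGST1 (-0.03), TXN (-0.05), PRDX1 (-0.11), SRXN1 (-0.02), TALDO1 (-0.01), BLVRB (-0.09), SLC48A1 (-0.05) and CES1 (-0.16). TXNRD1, at -0.23 ± 0.07, lost its call with 1 array left out (limma adjusted p up to 0.0786), and no other gene did.

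**Figure D4:**
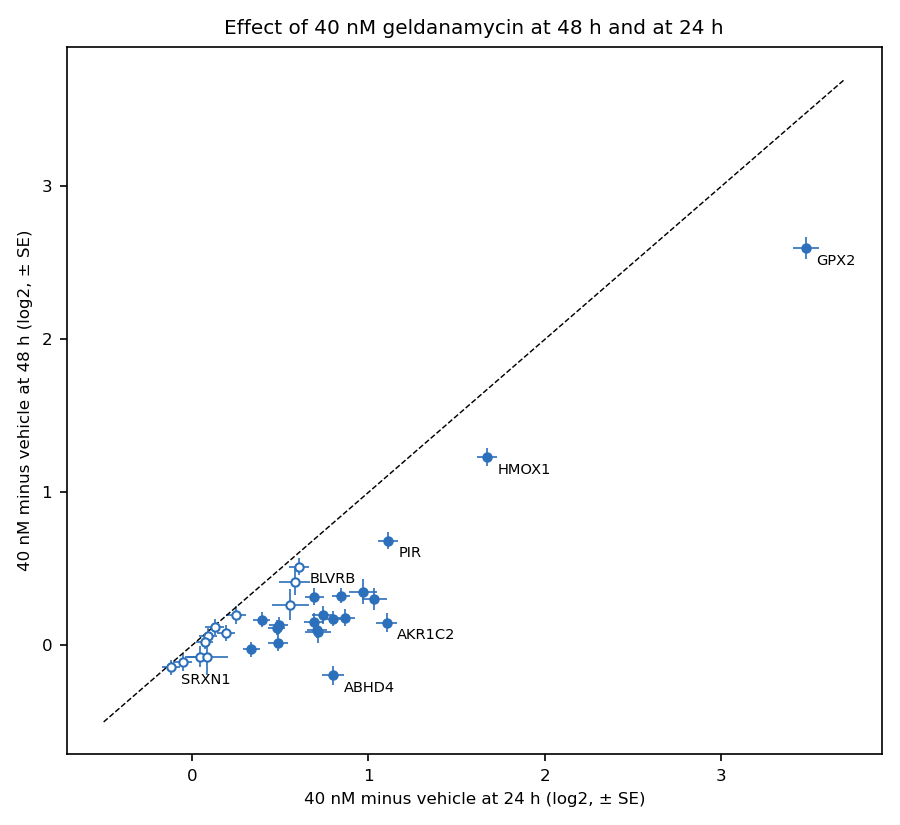
Log2 difference of 40 nM from vehicle at 48 h (y axis) against the same difference at 24 h (x axis) for the 32 genes, each with its standard error. The dashed line marks equal effects, and filled points are genes whose effects differed past an adjusted p of 0.05. All 32 points lie below the line, and GPX2 lies at 3.48 and 2.60.

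The vehicle arrays themselves stood at other levels at 48 h than at 24 h. The step holds any difference between the times in how the arrays were normalized, and it is given as values with no test. Over all genes its median was 0.35, with the 5th and 95th percentiles at -0.14 and 1.003. Over the set the median was 0.56, and 27 of 32 genes lay above the median of all genes. GPX2 had the largest step in the set, 2.83, followed by GSTM3 with 1.94, AKR1B10 with 1.20, OSGIN1 with 1.16 and AKR1C2 with 1.06. TRIM16 had the smallest, 0.09.

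Other genes of the NRF2 pathway were read from a separate list of 27, of which 24 were measured. At 24 h, 16 of the 24 were higher and 5 lower at 40 nM than in vehicle, with a median of 0.35. These are 66.7% and 20.8% of the list, against 14.8% and 16.7% of all genes. At 10 nM, 3 were higher and 4 lower, with a median of 0.02, or 12.5% and 16.7% of the list, near the 14.4% and 11.9% of all genes. At 40 nM for 48 h, 10 were higher and 2 lower, with a median of 0.13, or 41.7% and 8.33%, against 10.5% and 10.7% of all genes. Between the doses, 9 were higher and 3 lower at 40 nM, or 37.5% and 12.5%, against 11.9% and 14.5% of all genes. For the difference of effects, 3 were higher and 10 lower, or 12.5% and 41.7%, against 9.18% and 8.11% of all genes.

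The largest changes at 24 h were in UGT1A6, a glucuronosyltransferase, with 2.65 ± 0.20, in the iron exporter SLC40A1 with 2.52 ± 0.10, in the small MAF gene MAFF with -1.84 ± 0.12 and in the conjugate exporter ABCC2 with 1.39 ± 0.07. At 40 nM for 48 h they were in MAFF with 0.98 ± 0.12, SLC40A1 with 0.87 ± 0.10, the reductase PTGR1 with 0.75 ± 0.05 and IDH1, the cytosolic NADP-dependent isocitrate dehydrogenase, with 0.56 ± 0.05. At 10 nM they were in MAFF with 0.69 ± 0.12, SLC40A1 with -0.62 ± 0.10, CYP4F11 with -0.48 ± 0.11 and PTGR1 with 0.34 ± 0.05. SLC40A1 was thus lower than vehicle at 10 nM and higher at 40 nM. The CYP4F11 probe set was dim: 2 of its 3 values at 10 nM, 3.64 and 3.57, lay below the 20th percentile of log2 values, 3.66, so its size is uncertain. UGT1A6 was also dim in vehicle at 24 h, with 3.74, 4.40 and 4.30, so the size of its rise is uncertain too. For UGT1A6, 1 probe set named it alone and 5 named it with other genes. MAFF was lower than vehicle at 24 h and higher at both doses at 48 h.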

How the data were processed

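Total RNA of A549 cells was hybridised to Affymetrix HG-U133 Plus 2.0 arrays. The authors deposited log2 values for each probe set on each array. The submitters' processing notes name RMA and Affymetrix Expression Console, with versions not given in the sources used here. Arrays are quantile-normalized together by RMA, and the array means differ between the times, so tests were made within a time, and the vehicle levels of both times are given side by side with no test. The table holds 54675 probe sets, 62 of them controls. By the platform annotation 41091 others have 1 gene symbol, 11721 are unnamed here and 1801 have several. Gene IDs gave current symbols for 41037.

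Group means were fitted with limma 3.58.1 in R 4.3.3 (lmFit, eBayes; 10 residual degrees of freedom) for 5 comparisons: 40 nM against vehicle at 24 h and at 48 h, 10 nM against vehicle, 40 nM against 10 nM, and the difference between times of the 40 nM effect. The fit was tested on simulated data. No low-value filter was applied. Alternatives in normalization were cyclic loess and subtracted array medians. Dim values were floored at the 20th percentile or the dimmest 40% of genes dropped. Probe sets of a gene were averaged, or those ending in _x_at or _s_at dropped. The model took replicate number as a block, array weights, or an intensity trend and robust prior, or was fitted to the compared groups alone. Each array was also left out in turn.

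The genes and lists were chosen with earlier results of these data known, so no count over them is independent evidence. The naming rule gave every measured gene of the set, and up to 4 of the largest passing differences from vehicle in the pathway list.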

Additional observations from a re-analysis of the deposited data

Results flagged for a closer look

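The effect of 40 nM geldanamycin at 48 h differed from that at 24 h, by a test of the difference itself in limma, for 20 genes. In log2, the effect at 48 h minus that at 24 h was negative for all 20. Over all genes it was lower for 8.11% and higher for 9.18%. Among the aldo-keto reductases these were AKR1C2 (-0.95), AKR1C1 (-0.69), AKR1C3 (-0.63) and AKR1B10 (-0.61). Among the glutathione genes these were GPX2 (-0.88), GCLC (-0.54) and GCLM (-0.38). Among the NADPH genes these were PGD (-0.54), ME1 (-0.52) and TKT (-0.36). Among the heme genes these were FECH (-0.62) and HMOX1 (-0.44). Among the detoxification and other targets these were ABHD4 (-0.997), OSGIN1 (-0.73), EPHX1 (-0.62), UGDH (-0.47) and PIR (-0.43). Among the regulators these were TRIM16 (-0.36) and NFE2L2 (-0.36). In the thioredoxin group it was TXNRD1 (-0.23). The dimmest probe sets of GPX2 and AKR1C2 gave 0.79 and 0.34. GPX2, PGD and TXNRD1 did not pass with the probe sets of each gene averaged. The part of a change of scale between the times was not tested. The groups hold 3 arrays each, too few to look for single arrays that stand apart.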

How the results depend on the processing

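The 25 genes higher at 24 h became 21 to 28 over the alternatives, and leaving out each array gave 25 each time. The 21 were of 27 measured without _x_at and _s_at probe sets, where GSTM3 and TKT lost their calls and other called genes were not measured. The 0 lower became 1, SRXN1, with the floor, without the dimmest 40%, with the intensity trend and with array weights. At 10 nM the 7 higher became 4 with array medians subtracted and 4 to 5 with an array left out, while the 9 lower became 11 with medians subtracted, 12 with the intensity trend and 7 to 8 with an array left out. At 40 nM for 48 h the 14 higher became 22 with the intensity trend and 9 to 12 with an array left out. There the 1 lower became 0 with cyclic loess, 0 to 1 with an array left out, and 2 with medians subtracted, the floor, without the dimmest 40%, with the trend and with weights. Between the doses the 20 higher became 12 of 27 measured without _x_at and _s_at probe sets and 13 to 16 with an array left out. There the 0 lower became 1 without those probe sets, with the trend and with weights. For the difference of effects the 20 lower became 18 with probe sets averaged, of which 17 were among the 20, 16 of 27 measured without _x_at and _s_at probe sets, and 19 to 20 with an array left out.

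Directions turned where another probe set was read. Without _x_at and _s_at probe sets, TKT was -0.0216 at 24 h, 0.32 at 10 nM and -0.79 between the doses. In the same setting GSTM3 was 0.14 at 10 nM and -0.051 between the doses, and AKR1C2 was -0.73 at 10 nM and 0.34 for the difference of effects. With each gene's probe sets averaged, AKR1C2 was -0.23 and GSR -0.11 at 10 nM, and PGD was -0.022 at 40 nM for 48 h. In that setting GPX2 (-0.05), PGD (-0.23) and TXNRD1 (-0.07) no longer passed for the difference of effects. The cause was not tested.

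Replicate numbers did not pair the arrays: 10 of 30 same-numbered pairs had a correlation over 0.1, from -0.46 to 0.50. With the number as a block, the counts were 25 higher and 0 lower at 24 h, 5 and 9 at 10 nM, 14 and 1 at 40 nM for 48 h, 17 and 0 between the doses, and 0 and 19 for the difference of effects.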
